A study of Mus musculus with 4 samples.

Results

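The T cell receptor gene segments are the variable (V), diversity (D), joining (J) and constant (C) genes from which T cells assemble the 2 chains of their antigen receptor. They were taken here as all genes whose symbol starts with Tra, Trb, Trg or Trd followed by v, d, j or c and that lie in the receptor loci on chromosomes 14, 6 and 13 of the mm10 assembly. This gave 258 genes of 50600: 128 Trav, 60 Traj and Trac of the alpha chain, 35 Trbv, 2 Trbd, 14 Trbj and 2 Trbc of the beta chain, 6 Trdv, 2 Trdd, 2 Trdj and Trdc of the delta chain, and 1 Trgv and 4 Trgj of the gamma chain. The gamma V and C genes whose symbols in the annotation start with Tcrg fall outside that pattern and are given once for comparison.

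RNA was sequenced from T-helper 17 (Th17) cells, a class of CD4 T cells known for secreting interleukin 17, prepared as primary cells from mice of strain C57BL/6NJ. The 4 libraries form 1 group, replicates 1 to 4, with no control group; the labels link a protocol for differentiating CD4 T cells and record sex as not collected and age as unknown. All 4 carry 1 donor identifier, and whether they came from separate animals or cultures is not stated, so every SD below measures the spread between these libraries, which may be technical. Total counts were 36298276, 40652146, 26953724 and 25847970 in replicates 1 to 4. T cell markers were high in all 4 libraries (7 of 7 with a mean of at least 1 FPKM, defined below), whereas B cell, myeloid and NK lists had 1 of 7, 1 of 6 and 0 of 4 such genes; the B cell gene was Ighm, while Ms4a1 was at 0 counts. In bulk RNA, fewer cells of a type and less RNA per cell cannot be told apart.

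Each T cell joins 1 V, sometimes a D, and 1 J segment by cutting and rejoining its DNA, and the spliced message adds a C gene. Alpha chains use V, J and C segments, and beta chains use V, D, J and C segments. Successive alpha rearrangements on 1 chromosome delete the DNA between the joined V and J, and the delta genes lie inside the alpha locus, so a V to J alpha join removes them. A population of many clones therefore carries reads from many V and J segments and from few C genes.

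The short pieces that make up a receptor message are shown here because they fix where counts could fall. V segments carry the codon for a conserved cysteine near their end, seen in the last 30 bases of the transcript of the 3 Trbv segments with the most counts, of Trbv1, and of the Trav segment with the most counts; TGTGC is in capitals.
Trbv3: gtgtacttcTGTGCcagcagcttagccaca
Trbv15: agctgtgtatctgTGTGCcagcagtttagc
Trbv13-2: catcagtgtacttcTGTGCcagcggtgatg
Trbv1: cagaaccttgtactgcacctgcagtgcaga
Trav14n-3: actcagccacctacttcTGTGCagcaagtg
TGTGC was found, on either strand, in the last 30 bases of 86 of 108 functional Trav segments and 19 of 22 functional Trbv segments, against 4.86% of 55158 genes outside the receptor loci; Trbv1, the fifth highest Trbv segment, does not hold these letters in this window. Functional means annotated as a gene and not as a pseudogene.

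J segments hold a phenylalanine and glycine motif. Searched on both strands as TTNGG followed by any 4 bases and GG, it was present in 44 of 51 functional Traj and 11 of 13 functional Trbj segments, against 1.85% of the last 60 bases of 54997 other genes. The segments below are the Traj and Trbj segments with the most counts, the pseudogene Traj1 that lies next to Trac, and both D segments; the motif is in capitals.
Traj2: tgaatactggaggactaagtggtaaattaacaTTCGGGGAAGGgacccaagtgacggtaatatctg
Traj6: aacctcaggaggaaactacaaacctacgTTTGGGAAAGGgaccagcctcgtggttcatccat
Traj1: gtgtgcagatagctgctccatctttcctg
Trbj2-7: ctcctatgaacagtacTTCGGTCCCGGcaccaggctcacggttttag
Trbj2-1: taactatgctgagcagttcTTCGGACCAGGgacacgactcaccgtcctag
Trbd1: gggacagggggc
Trbd2: gggactgggggggc
All sequences are read 5′ to 3′ from GENCODE M21 transcripts. Fragments that touched exons of more than 1 gene, as a fragment crossing a V to J to C joint does, were not counted. Counts on segments are therefore a part of the receptor RNA, and the share lost in this way was not measured. J and D segments are short, so their counts do not measure how often they are joined.

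Receptor genes took 1930 ± 83.5 CPM (counts per 1000000 counted in the library; SD, n = 4). Of the 258 genes, 198 had a count and 60 were at 0 in all libraries. A floor of 3 counts, taken as a conventional upper limit for an observed 0, corresponds to 0.0738 to 0.116 CPM. C genes held 1404 ± 84.0 CPM, V segments 442 ± 37.4, J segments 78.8 ± 27.7 and D segments 4.74 ± 0.319 CPM. Levels of different genes are compared as FPKM, CPM per 1000 bases of exon.

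Trac, the only alpha constant gene (chromosome 14, 54220521 to 54224206), stood at 1025, 932, 890 and 1055 CPM in replicates 1 to 4. The highest library was 1.19 times the lowest, and the mean level was 1043 ± 83.1 FPKM. Trdc, the delta constant gene upstream of it, had 497 counts in all and 0.813, 1.11, 0.989 and 1.05 FPKM. All 4 libraries thus had far more Trac than Trdc: the difference on the log2(FPKM + 1) scale was 9.03 ± 0.17 (n = 4). A two-sided exact permutation test, flipping the signs of the 4 differences, gave p = 0.125, the smallest that 4 libraries allow (adjusted 0.15 over 6 contrasts). With a pseudocount of 0.1 in place of 1 the difference was 9.91, and on CPM without the division by length it was 7.66.

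The beta locus has 2 constant genes, Trbc1 and Trbc2, each downstream of its own D segment and J cluster, and both encode a working beta chain. Trbc1 (chromosome 6, 41538218 to 41539881) was at 191, 255, 221 and 222 FPKM, and Trbc2 (chromosome 6, 41546730 to 41548352) at 333, 429, 340 and 393 FPKM. Trbc2 exceeded Trbc1 in 4 of 4 libraries, and the lowest Trbc2 value lay above the highest Trbc1 value. The log2 difference was 0.75 ± 0.09 (n = 4), with the same exact sign-flip p = 0.125 (adjusted 0.15). The genes are near copies: their first exons differ at 1 of 375 bases, and over the first 3 exons 96.2% of 500 bases are identical. Because 44.8% of the 31-base words of Trbc1 and 48.5% of those of Trbc2 occur in another gene, fragments placed equally well in both went uncounted, and both levels rest on the parts that differ. Exon 3 holds 15 of the 19 differing bases, in capitals here.
Trbc1: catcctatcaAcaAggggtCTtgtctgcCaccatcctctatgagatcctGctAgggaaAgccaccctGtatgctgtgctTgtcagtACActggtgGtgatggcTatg
Trbc2: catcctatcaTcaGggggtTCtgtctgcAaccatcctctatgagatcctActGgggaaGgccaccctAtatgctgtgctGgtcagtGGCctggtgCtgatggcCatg

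Gamma constant genes, which pair with the delta chain, had 17 counts in all over Tcrg-C1, Tcrg-C2, Tcrg-C3 and Tcrg-C4. Their summed level was 0.0298, 0.132, 0.201 and 0.251 FPKM, against 523, 684, 561 and 615 FPKM for Trbc1 and Trbc2 together. The log2 difference was 9.01 ± 0.16 with a pseudocount of 1 and 11.29 ± 0.57 with a pseudocount of 0.1, so its size is set largely by that choice. Among the genes of the pattern, Trgv2 had 1 count and the 4 Trgj segments had 0. The invariant and gamma delta markers outside the loci were also low: Sox13 had 36 counts, Blk 2, Zbtb16 1 and Klrb1c 0.

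Among beta V segments, use was broad. All 22 functional Trbv segments had counts, and the 10 segments at 0 were pseudogenes. Trbv3 (chromosome 6, 41048290 to 41048828) took the most, with 24.7, 33.6, 25.7 and 24.3 CPM. Replicate 2 stood above the other 3, which lay close together. It held 11.0 ± 0.602% of all Trbv counts (n = 4). Trbv15 (21.4 ± 3.26 CPM), Trbv13-2 (21.3 ± 2.94), Trbv31 (20.7 ± 2.30), Trbv1 (20.1 ± 5.29) and Trbv19 (19.4 ± 2.84) followed, and neighbours in this order differed by less than their SD. Per length, Trbv13-2 led with 62.5 ± 8.63 FPKM, ahead of Trbv3 with 59.6 ± 9.65 and Trbv15 with 57.9 ± 8.81, again within the spread. Trbv31 lies on the opposite strand beyond Trbc2 and is joined by inversion, and Trbv1 lies farthest from the D segments; both were among the 5 highest.

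The 3 members of the Trbv13 family, formerly called Vbeta8, summed to 49.1 ± 6.40 CPM. The lowest functional segments were Trbv21 (11 counts in all), Trbv30 (0.987 ± 0.250 CPM) and Trbv23 (1.91 ± 0.573 CPM). The 3 segments with the highest mean CPM over the 4 libraries were Trbv3, Trbv15 and Trbv13-2. Taken as a fixed set, not as the 3 highest of each library, they held 28.4 ± 1.33% of the Trbv counts. The effective number of segments, the number of equally used segments that would give the same Shannon diversity, was 17.4, 16.9, 17.3 and 17.1. The 4 libraries ranked the 22 segments with at least 40 counts alike, with Spearman coefficients of 0.971 to 0.994 over the 6 pairs of libraries, a description across segments that share a locus. The shares still varied by more than counting noise, with a chi-square per degree of freedom of 3.00 where counting noise alone gives 1.

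**Figure D1:**
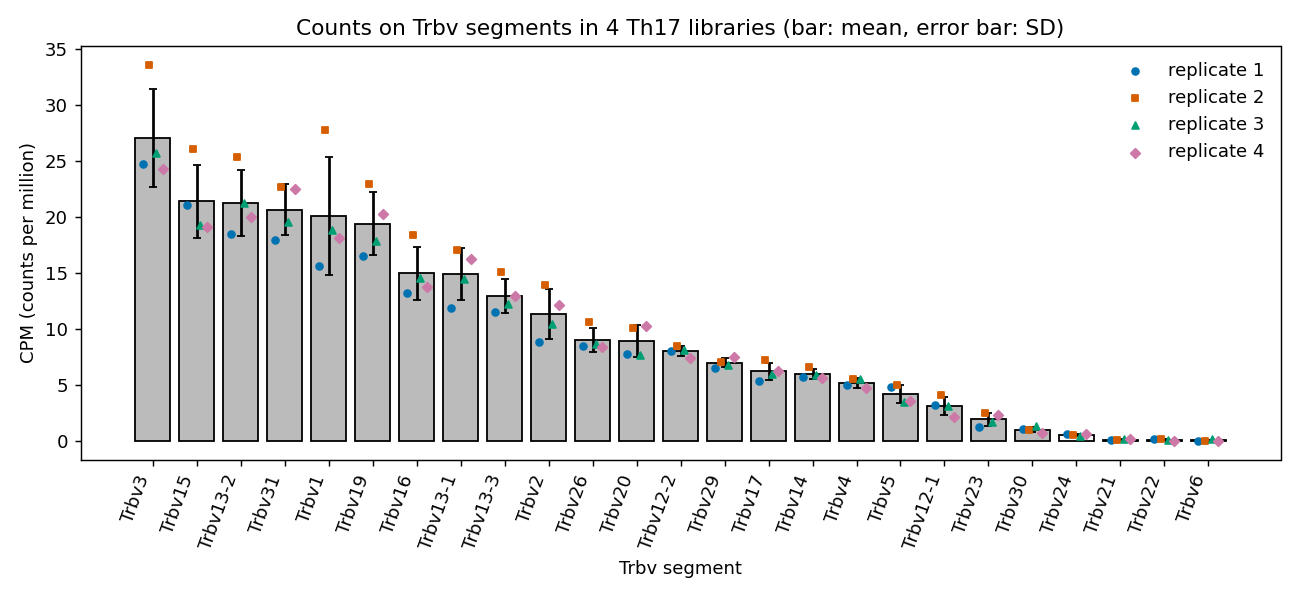
CPM (y axis) on the 25 Trbv segments with a count (x axis), ordered by mean; bars are means of 4 libraries, error bars SD, points single libraries, and white bars pseudogenes. Trbv3 is highest at 27.1 ± 4.39 CPM, and the order falls in small steps to Trbv21 and the pseudogenes, all near 0.

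Trbd1, upstream of the first J cluster, was at 3.06, 3.03, 3.41 and 2.98 CPM, and Trbd2 at 1.43, 1.75, 1.11 and 2.21 CPM; Trdd1 and Trdd2 were at 0. Trbd1 lay above Trbd2 in each library, with no overlap. At 12 and 14 bases these are the shortest members, so no FPKM is compared. The Trbj segments summed to 18.2 ± 1.77 CPM, and all 14 had counts. Trbj2-7 (1.99 ± 0.248 CPM), Trbj2-1 (1.89 ± 0.638), Trbj1-3 (1.66 ± 0.377) and Trbj1-6 (1.55 ± 0.323) were highest, and each differed from the next by less than its SD. The second J cluster, next to Trbc2, had 167, 205, 178 and 179 FPKM in sum and the first, next to Trbc1, had 207, 149, 234 and 149 FPKM. The first was higher in replicates 1 and 3 and the second in replicates 2 and 4. The log2 difference was 0.01 ± 0.42 (exact sign-flip permutation p = 1 with n = 4), so the J clusters as counted had no common direction over the libraries, unlike the constant genes beside them. Whether the 2 differences differ from each other was not tested.

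Among alpha V segments, Trav14 copies were highest. Trav14n-3 (chromosome 14, 53370077 to 53370575) had 13.7, 12.5, 10.9 and 14.7 CPM, 6.64 ± 0.372% of all Trav counts. Trav14-3 (9.995 ± 2.14 CPM), Trav4-4-dv10 (8.93 ± 1.29), Trav3-3 (7.78 ± 0.768), Trav14d-3-dv8 (7.55 ± 1.99) and Trav14-2 (7.03 ± 0.869) came next. Trav14n-3 lay above Trav14-3 in each library though their ranges overlapped, and Trav4-4-dv10 likewise lay above Trav3-3 in each library. The mean steps below Trav14-3 were smaller than the SD of the higher segment. The 9 Trav14 genes summed to 44.5 ± 3.50 CPM, although 4 of them were at 0. The effective number of Trav segments was 47.5, 49.1, 48.9 and 47.1.

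Copies limit what can be read from Trav. In the C57BL/6 locus a central stretch is repeated, and the annotation marks the copies with d and n. Of the 128 Trav genes, 41 have every 31-base word in another gene, and these held 0.0553% of Trav counts, with 34 at 0. The 55 Trav genes without a d or n summed to 144 ± 14.8 CPM, the 39 d copies to 23.1 ± 0.809 and the 34 n copies to 27.6 ± 2.41 CPM. A median of 55.6% of the 31-base words of the first was shared, against 100% in both kinds of copy, so a low count in a copy says little of its use. Trav11 and Trav11d, joined to Traj18 in invariant NKT cells, are wholly shared and had 1 and 0 counts, so these counts do not measure their use.

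Along the locus the libraries did not vary alike. In a run of neighbouring segments from Trav8d-2 to Trav9n-4 (chromosome 14, 53042428 to 53295030), 29 genes summed to 11.4, 23.4, 22.3 and 10.9 CPM in replicates 1 to 4, so replicates 2 and 3 were high and 1 and 4 low with no overlap. Of the 12 genes there with at least 12 counts, 11 had their 2 highest values in replicates 2 and 3, against 3 of 60 such Trav genes outside it. Trav7n-4 was at 0.523, 2.04, 1.97 and 0.774 CPM, Trav6n-5 at 0.303, 1.13, 1.26 and 0.271 CPM, and Trav14d-3-dv8, which held the most counts, at 6.83, 9.37, 8.94 and 5.07 CPM. Without Trav14d-3-dv8 the sum was 4.57, 14.02, 13.4 and 5.80 CPM. The exception was Trav11n, with 20 counts, highest in replicates 3 and 4.

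The segments farther from Trac went the other way. The 42 of them summed to 31.7, 21.7, 18.4 and 32.4 CPM, and 12 of the 18 with at least 12 counts had their 2 highest values in replicates 1 and 4. Trav6d-3 was at 0.799, 0.418, 0.260 and 0.890 CPM and Trav7-1 at 3.11, 2.26, 1.30 and 3.25 CPM. The 57 segments nearer Trac, which held 77.8 ± 1.29% of Trav counts, ranged only 1.26-fold (154, 152, 133 and 168 CPM). Of the 42 nearer segments with at least 12 counts, 15 also had their 2 highest values in replicates 1 and 4, and 3 in replicates 2 and 3. The ends of the run were chosen after the values were seen, so the pattern is a description with no test, and its part in the other Trav values was not tested. Among marker lists, thymocyte markers summed to 124, 147, 146 and 122 CPM, mostly through Themis (103, 123, 120 and 99.9 CPM). B cell markers summed to 68.2, 87.5, 77.9 and 75.3 CPM, nearly all from Ighm (67.9, 86.4, 76.8 and 74.4 CPM). Both were highest in replicates 2 and 3 over a smaller range, with Rag1, Rag2 and Ms4a1 at 0. NK markers, coreceptors and transcription factors of the receptor enhancers or promoters were also highest in replicates 2 and 3. The other lists measured were not. The part of these lists in the run was not tested. Trac itself was lower in replicates 2 and 3, but over a range of 1.19-fold, against 2.15-fold for the run.

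**Figure D2:**
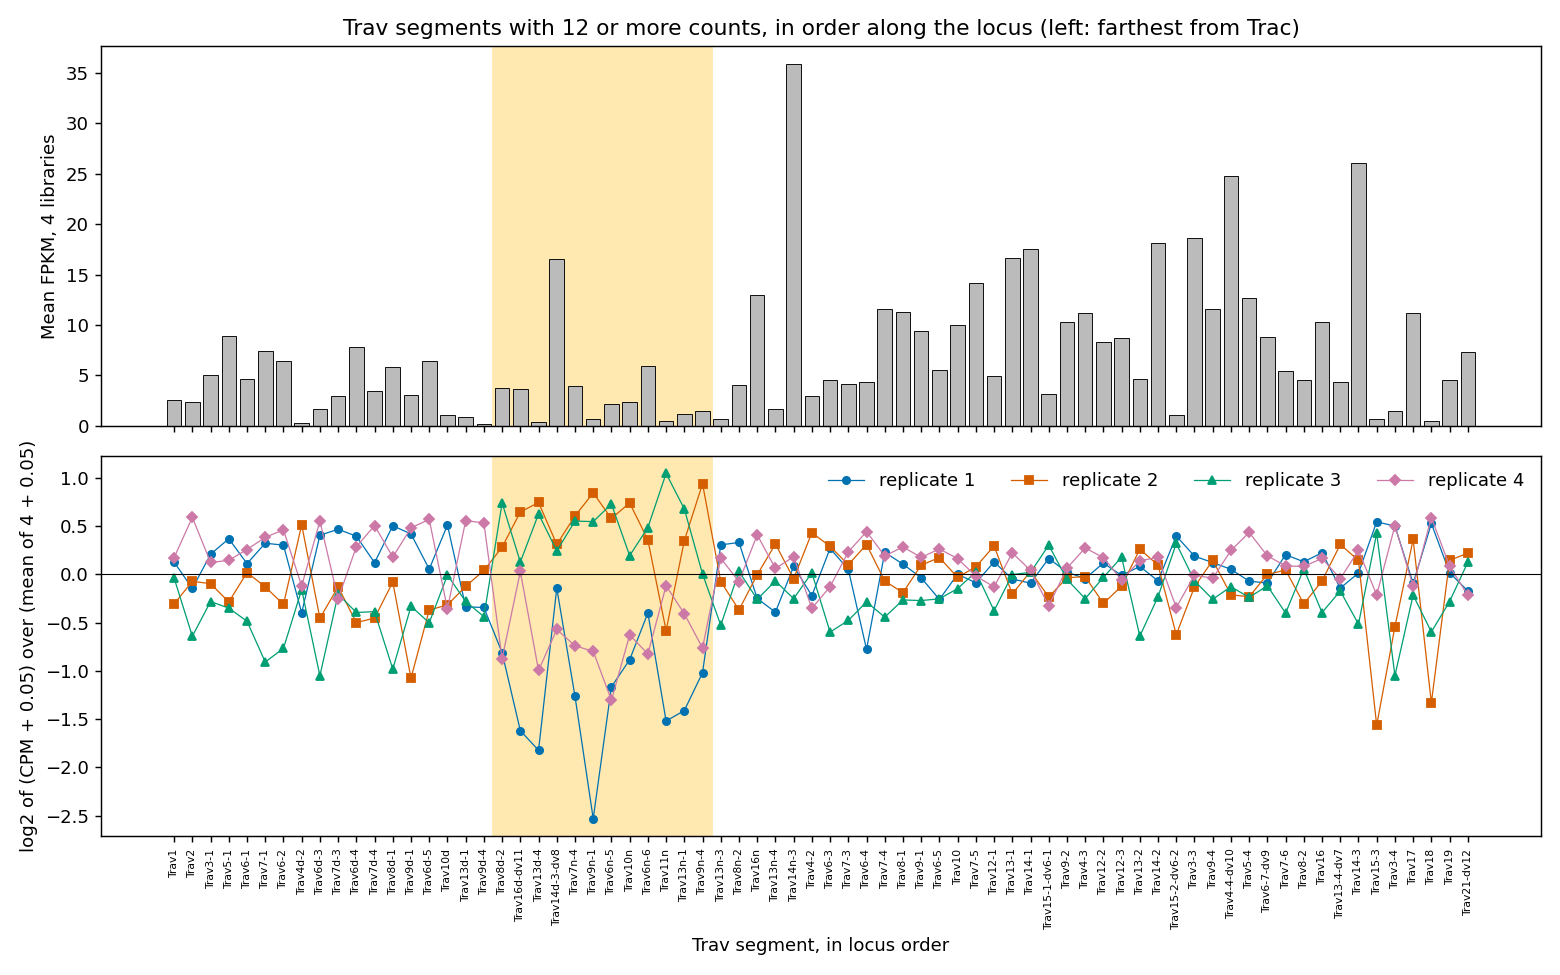
Trav segments with at least 12 counts in locus order, farthest from Trac on the left; upper panel, mean FPKM of 4 libraries (y axis); lower panel, log2 of each library's CPM over the mean of the 4, with 0.05 added to both (y axis), points being libraries. In the shaded run from Trav8d-2 to Trav9n-4, replicates 2 and 3 lie above replicates 1 and 4 in 11 of 12 segments.

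Joining segments of the alpha chain had lower levels the farther they lay from Trac. Of 60 Traj segments, only Traj58 was at 0. Traj2, 2.62 kb from Trac, had 5.54, 2.71, 6.68 and 3.79 CPM, and the pseudogene Traj1, nearest of all at 1.68 kb, had 99.8 ± 56.5 FPKM, the highest per length. Traj1 has only 29 bases, so its FPKM rests on a very short length. In CPM, Traj1 was at 2.89 ± 1.64, against 4.68 ± 1.77 for Traj2. In order from Trac, 6 groups of 10 segments had median levels of 41.9, 23.7, 15.4, 7.58, 2.66 and 0.927 FPKM. Across the 60 segments the Spearman coefficient of mean FPKM with distance was -0.954, and it was -0.953 to -0.895 in the single libraries; segments share libraries and locus, so this is a description. The 30 segments nearest Trac held 85.1 ± 2.16% of the Traj counts, in 4 of 4 libraries (exact sign-flip permutation p = 0.125, n = 4). Among Trav segments the same coefficient was -0.314, and the nearest 64 of 128 held 78.3 ± 1.10% of the counts. In order from Trac, 4 groups of 32 Trav segments had medians of 54.5, 88.2, 100 and 91.3% of 31-base words shared. Over Trav segments with under 50% shared, the nearest held 64.4% of the counts, so shared sequence limits this comparison.

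**Figure D3:**
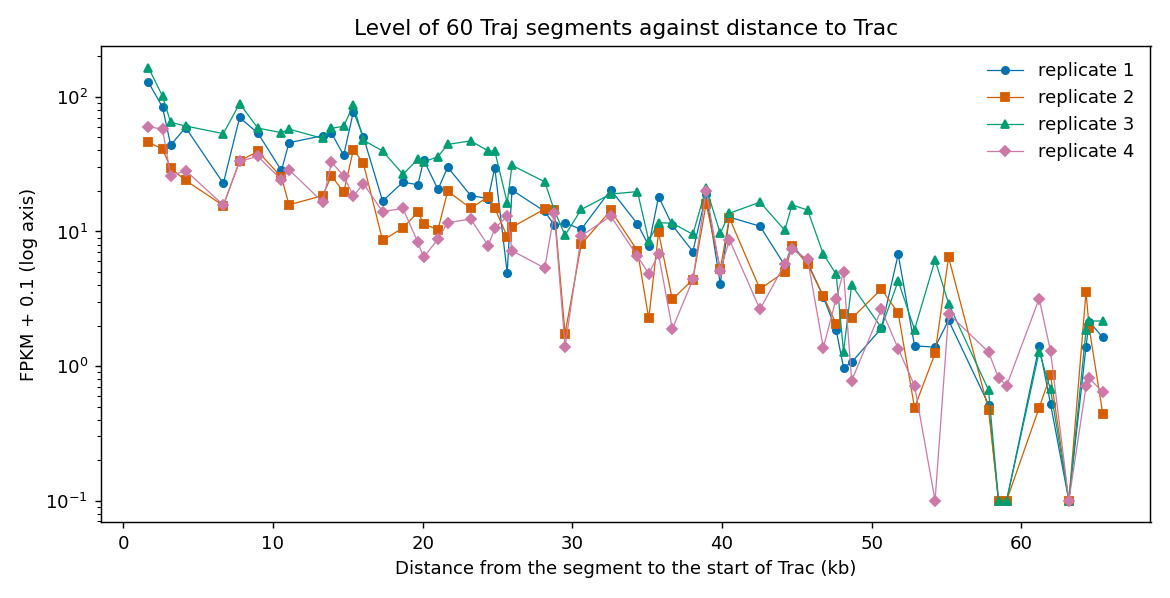
FPKM + 0.1 on a log axis (y) of the 60 Traj segments against distance to the start of Trac in kb (x); lines and points are the 4 libraries. Levels fall over 65 kb from a median of 41.9 FPKM in the 10 nearest segments to 0.927 in the 10 farthest, and replicates 1 and 3 lie above 2 and 4 over most of the near part.

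The total on Traj segments varied far more between the libraries than Trac. It was 69.8, 40.3, 93.2 and 38.8 CPM in replicates 1 to 4, a range of 2.40-fold, and replicates 1 and 3 were high. Traj6 was at 4.35, 2.07, 5.53 and 2.05 CPM, and Traj18, the J of invariant NKT receptors, at 1.46, 0.910, 2.26 and 0.542 CPM. Of the 42 Traj segments with at least 40 counts, 34 had their 2 highest values in replicates 1 and 3. This compared with 7 of 14 Trbj, 5 of 64 Trav and 1 of 22 Trbv segments. Segments of a class share a locus and libraries, so these counts are a description and not separate observations. The Trbj1 cluster, at 10.4, 7.53, 11.8 and 7.54 CPM, was also high in replicates 1 and 3, and the Trbj2 cluster, at 8.15, 10.04, 8.68 and 8.70 CPM, was not. Traj counts were 6.81, 4.32, 10.5 and 3.68% of Trac counts, whereas Trav counts were a steady 20.0 ± 0.828% of them. The nuclear noncoding RNAs Malat1 (863, 439, 1560 and 393 CPM) and Neat1 (209, 163, 340 and 129 CPM) had the same order of libraries. They were added for comparison from outside the gene lists, and the shared order is a description that supports nothing. The 6 myeloid markers summed to 6.28, 2.88, 7.35 and 4.02 CPM, also high in replicates 1 and 3, mostly through Cd68 (4.35, 1.84, 6.05 and 2.90 CPM); Lyz2 and Csf1r had 2 counts each and Adgre1 had 5. The part of these genes in the Traj result was not tested.

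**Figure D4:**
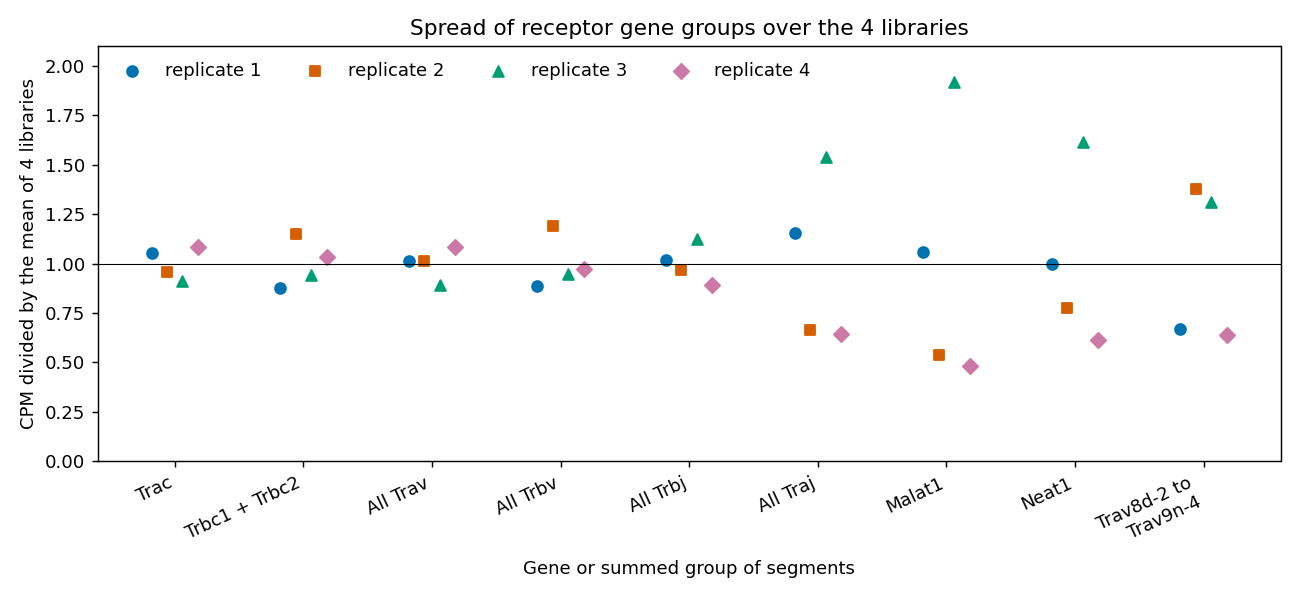
CPM of receptor gene groups, Malat1 and Neat1, each divided by its mean of 4 libraries (y axis, from 0); points are libraries. Trac, Trav, Trbv and Trbc stay within 0.8 to 1.2, Traj, Malat1 and Neat1 have replicates 1 and 3 above 2 and 4, and the Trav8d-2 to Trav9n-4 run has replicates 2 and 3 high.

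Across all genes, variation between the libraries beyond the trend of genes of like abundance was tested with edgeR at an adjusted p under 0.05, which called 94 of 11567 genes (0.813%). Of the 258 receptor genes 134 passed the expression filter, and 0 of these were called. Under an unadjusted p of 0.05 there were 27 of 134, against 5.98% of all tested genes: 18 of 33 Traj, 5 of 7 Trav in the run and 3 of 50 outside it, and 1 of 22 Trbv (Trbv1). The split by the run describes segments chosen for their differences and supports nothing. The lowest adjusted values of edgeR were 0.061 for Traj19 and 0.0882 for Traj1. In the same edgeR fit, Malat1 had an adjusted p = 5.52e-10 and Neat1 an adjusted p = 0.00277. Changing the scaling or the filter, or leaving out any library, also called 0 receptor genes and 0.294 to 0.795% of all tested genes. With tagwise dispersion edgeR called 0 genes of any kind. At shares this low, 0 calls among the receptor genes say little about them.

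Other receptor regions held few counts. Trdv1 stood at 1.43 ± 0.387 CPM, Trdv2-2 at 0.657 ± 0.118 and Trdv5, on the opposite strand, at 0.260 ± 0.204. Replicate 1 held 20 of the 36 Trdv5 counts, and without it the mean was 0.163 CPM. The 2 Trdj segments had 12 counts in all. Pseudogenes took 0.685 ± 0.123% of V segment counts, or 0.392% over segments with under 50% of their 31-base words in another gene. The highest was Trav8-2 (1.53 ± 0.205 CPM, 59.9% shared), followed by Trbv24 (0.525 ± 0.106, none shared) and Trav9n-1 (0.239 ± 0.217, 60.5% shared), which lies in the run above. Trav1 and Traj33, joined in mucosal-associated invariant T cells, had 122 and 41 counts. Fragments crossing their joint were not counted, so these counts do not measure how often they are joined to each other.

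Genes that work with the receptor were measured from a list chosen with the members. The CD3 and zeta chains, which carry the signal, were at 404 ± 29.6 CPM (Cd247), 270 ± 15.0 (Cd3e), 265 ± 22.1 (Cd3d) and 265 ± 24.8 (Cd3g), with 4 of 4 at or above 1 FPKM. Cd4 was at 429 ± 36.6 CPM and Cd8a at 0.229 ± 0.198; Cd8b1 was at 11.8 ± 2.45. Rag1 and Rag2, which cut the DNA, were at 0 counts, and Ptcra, the surrogate alpha chain, had 1. Dntt, which adds bases at the joints, had 494 counts (3.82 ± 0.290 CPM), and 8 of 11 recombination genes were at or above 1 FPKM, including the end-joining genes Prkdc and Xrcc5. All 11 transcription factors listed for the receptor enhancers or promoters were at or above 1 FPKM, led by Tcf7 (829 ± 118 CPM) and Ets1 (866 ± 95.2). None of the genes in these lists was called as varying with edgeR; under an unadjusted p of 0.05 the recombination list had 1 of 9 tested (Dclre1c, 123, 77.1, 135 and 80.9 CPM, high in replicates 1 and 3).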

How the data were processed

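Whole fragment counts per gene for 4 Th17 libraries were deposited. The authors made these counts with featureCounts 1.4.6-p4 on GENCODE M13 exons, per the file headers, requiring both ends of a pair to map and reverse strandedness (option value 2). No option to count fragments with several alignments, or in several genes, is recorded; they are left out by default. STAR is named in the headers without a version, and the labels name mm10. The assay is titled total RNA-seq and the linked library protocol is named for poly(A)+ RNA; output names carry a tag of 02hr.

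Symbols and sequences come from GENCODE M21; 224 of 50600 identifiers had no symbol. From these, CPM and FPKM were derived with the deposited exon lengths. Shared sequence is the percent of a gene's 31-base words found in another gene. Library contrasts used log2(value + 1), a two-sided exact permutation test (sign flips) and Benjamini-Hochberg adjustment. Variation was tested with edgeR 4.0.16 in R 4.3.3 (intercept only, TMM, deviance at the trended dispersion against chi-square, adjusted p under 0.05); on simulated counts for 11567 genes it recovered 97 of 100 genes raised 4-fold in 1 library and 31 of 100 raised 2-fold. The other steps ran in Python 3.11.15 with pandas 2.3.3, numpy 2.4.6 and scipy 1.17.1; figures were drawn in matplotlib 3.10.9. Named genes were the C and D genes, the segments with the most counts of each class, segments of invariant receptors and genes that work with the receptor; Trav neighbours in the run were chosen after their values were seen. The members and lists were chosen with earlier results of these data known. Malat1 and Neat1 were on none of these lists and were added for comparison. Limits of counts cover counting error only.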

Additional observations from a re-analysis of the deposited data

Results flagged for a closer look

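Of 51 values checked over the 4 libraries, 3 had 1 library far from the others, with a gap, as a share of the whole range, above Dixon's critical value for 4 samples; chance flags about 1 in 20 groups. Trbv3 had 33.6 CPM in replicate 2, against 24.3 to 25.7 CPM in the other 3, a gap of 0.844 of the range. The other two are single counts: Trgv2 and Trav11 each had 0.0275 CPM in replicate 1, which is 1 count, and 0 elsewhere.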

How the results depend on the processing

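Of 72 recomputed values of the planned comparisons, 3 changed sign and 6, all shares or effective numbers, moved by more than 1 SD. The other 63 kept their direction, and the shares and effective numbers among them moved by less than 1 SD. No contrast could pass the threshold with 4 libraries, and the contrasts of constant genes kept their direction but not always their size: on CPM without division by length, Trbc2 against Trbc1 was 0.63, Trac against Trdc 7.66 and Trbc against Tcrg-C 8.54, and with a pseudocount of 0.1 the last 2 were 9.91 and 11.29. All 3 changes of sign concern the Trbj2 against Trbj1 difference, which is near 0: it was -0.039 on CPM without division by length, and leaving out 1 library gave -0.15 to 0.14 (negative without replicate 2 or 4). Using only segments with under 50% of 31-base words shared, the share of the nearest Trav segments was 64.4%, the effective number of Trav segments 17.9 and of Trbv segments 15.8, and the pseudogene share 0.392%. With at least 3 counts in every library the effective number of Trav segments was 46.7, and per length that of Trbv segments was 17.4. Leaving out 1 library gave 0.72 to 0.79 for Trbc2 against Trbc1, 8.96 to 9.08 for Trac against Trdc and 8.93 to 9.06 for Trbc against Tcrg-C. Receptor genes called as varying stayed at 0 in every edgeR run. Of all tested genes, 0.294 to 0.813% were called, or 0 with tagwise dispersion. Under an unadjusted p of 0.05 edgeR had 16 to 31 receptor genes of 133 to 198 tested, against 4.97 to 6.01% of all genes. With tagwise dispersion it was 1 of 134, against 0.882% of all genes. Means of single genes and of the Trav run were also taken without each library, an alternative added after seeing the data; Trdv5 (0.163 CPM without replicate 1) and the single counts of Trgv2 and Trav11 moved by over 1.5 times. No paired analysis was possible because there is 1 group. Depth limits segments with under 3 counts, and shared sequence limits the Trav copies and Trbc genes.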
